A study of Rattus norvegicus with 30 samples.

Results

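Hearts frozen without perfusion were compared between rats on a high-sucrose diet and rats on chow, to ask whether the diet alone altered cardiac RNA, before any ex vivo perfusion. The comparison comprised the 10 samples whose titles mark them as non-perfused, 5 sucrose-fed and 5 chow-fed, out of 30 in the series. Left ventricles were taken at an age of 16 to 18 weeks from males of the Sprague Dawley strain, and the samples of a group were given as biological replicates. The chow rats ate LabDiet laboratory rodent chow (5001), and the sucrose rats ate a Research Diets formula (D11725) for 8 to 10 weeks, a regimen described by the submitters as inducing insulin resistance. Rats of both diets were anesthetized with chloral hydrate and their hearts put in ice-cold Krebs-Henseleit buffer, dissected at once and frozen in liquid nitrogen. Grain-based chow and a purified diet differ in more than sucrose, so the sugar and the rest of the diet cannot be told apart, and insulin sensitivity was not analysed here. The other 20 hearts, 5 for each diet and perfusate, had been perfused as working hearts for 60 min with 25 mmol/L glucose or mannitol, the osmotic control. Those hearts share no array with the comparison and gave a second reading of the diet in other rats, limited by the array placement given below.

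The adult heart draws most of its energy from fatty acids and switches toward glucose when insulin is high. Insulin moves the glucose transporter GLUT4 (Slc2a4) to the cell surface, while fatty acids enter through CD36 and, by activating the receptor PPAR alpha, raise the genes of their own oxidation. Sucrose is split into glucose and fructose. Its long intake raises blood triglycerides in rats, and sugar-sensing factors such as ChREBP and MondoA drive genes like Txnip in several tissues.

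RNA was read on 1-colour Agilent arrays, and a level below is the log2 of a gene's normalized signal. Of 26785 genes on the array, 18333 were tested, 11304 of them with a gene symbol, and 12873 were well above background on all 10 non-perfused arrays. The label was checked against cardiomyocyte markers, and 14 of 14 were above background on all 10 arrays. Chow replicate 2 and sucrose replicates 1 and 5, which shared a slide, had noisier control spots than the other 7 arrays. Along the first principal component of the 10 arrays, which held 24.8% of the variance, slides accounted for 97.9% and diet for 8.70%. Each of the 4 slides held both diets, but the chow arrays lay mostly in the first slide column. The sucrose arrays lay in the columns beside it, so column and diet cannot be told apart. Among the mannitol-perfused hearts, the chow arrays lay in slide row 1. The sucrose arrays there lay in row 2, except replicate 1, alone on another slide, so row and diet cannot be told apart either. The glucose-perfused arrays of both diets lay in row 2. The number of arrays, 5 a diet, limits the precision, and the correlation between any 2 of the 10 arrays ran from 0.981 to 0.993.

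No gene passed the test for a difference between the diets. In limma with Benjamini-Hochberg adjustment at 0.05, 0 of 18333 genes rose (0%) and 0 fell (0%), and the smallest adjusted p was 0.864, so every gene named below had an adjusted p of at least that. At an unadjusted p under 0.05 there were 612 genes (3.34%), of which 263 were higher in sucrose hearts (1.43%) and 349 lower (1.9%). An even spread of p-values would have put 916.65 genes there. With the slide as a block the count was 991 and the smallest adjusted limma p 0.158, and still 0 genes were called. The 2 sets of 5 arrays did not overlap for 92 genes (0.502%), 44 of them higher in sucrose hearts (0.24%) and 48 lower (0.262%). The same fit, with the same number of arrays a group, called 886 genes higher (4.83%) and 670 lower (3.65%) when chow hearts perfused with mannitol were set against the chow hearts of this comparison.

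**Figure D1:**
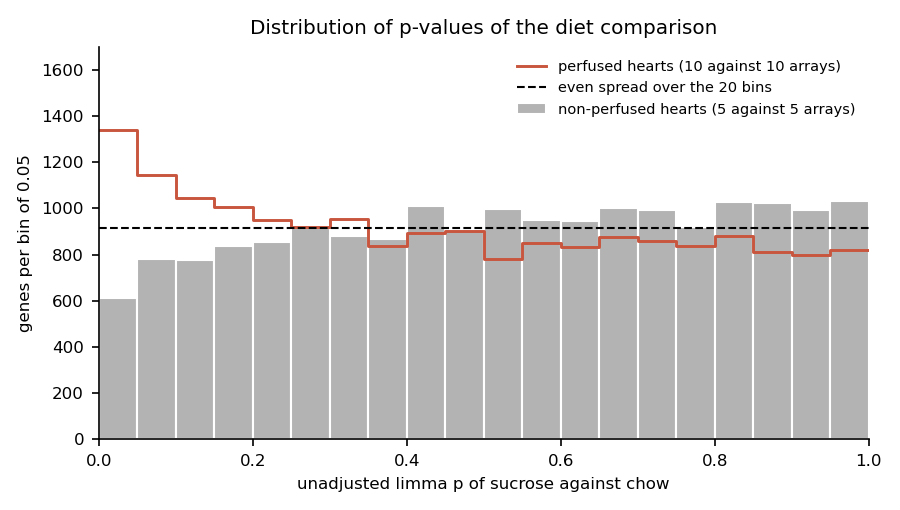
Number of genes (vertical axis) in each bin of unadjusted limma p (horizontal axis) for sucrose against chow in non-perfused hearts (grey bars) and in perfused hearts (red line), with an even spread as a dashed line. The lowest bin holds 612 genes in non-perfused hearts and 1341 (7.31%) in perfused hearts, against 916.65 for an even spread.

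The test bounded most differences from above. The median standard error of the diet difference was 0.14 on the log2 scale, and the 95% interval lay inside a 1.5-fold change in either direction for 12827 genes (70.0%) and inside a 2-fold change for 16386. Across 35 pathway lists holding 786 tested genes, each counted once, 0 rose and 0 fell, 632 had an interval inside 1.5-fold, and 8 higher and 16 lower genes reached an unadjusted p under 0.05 (3.05%, against 3.34% of all genes). The lists below are therefore described by their values, their counts and the width of their intervals, given on the log2 scale as sucrose minus chow.

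Genes of glucose uptake and glycolysis lay close together in both diets. Slc2a4, which encodes GLUT4, measured 13.95, 14.18, 13.93, 14.20 and 14.13 on the chow arrays and 14.004, 14.32, 14.10, 13.95 and 14.13 on the sucrose arrays. The groups overlapped throughout, and the difference was 0.02 (95% interval -0.14 to 0.18), which places the sucrose level between 0.91 and 1.13 times the chow level. Slc2a1, the basal glucose transporter GLUT1, differed by 0.18 (-0.17 to 0.52), and Hk2, the insulin-responsive hexokinase, by 0.13 (-0.12 to 0.37). Of 30 genes of the list none reached an unadjusted p under 0.05, 26 had an interval inside 1.5-fold, and the median difference was 0.02 (-0.01 over all tested genes). For pyruvate dehydrogenase control, 13 of 13 genes had an interval inside 1.5-fold, and for the citric acid cycle 19 of 19.

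Txnip, the MondoA and ChREBP target that restrains glucose uptake, measured 12.35, 13.03, 13.59, 13.21 and 13.06 on the chow arrays and 13.03, 12.78, 13.43, 13.35 and 12.59 on the sucrose arrays. The arrays of one diet covered those of the other, and the difference was -0.01 (-0.40 to 0.38). Of 16 tested genes of the carbohydrate-responsive list, 7 were above 0, and 1 reached an unadjusted p under 0.05: Mlx, the dimer partner of ChREBP and MondoA, at -0.17 (-0.31 to -0.02). The lipogenic genes Fasn and Scd differed by -0.08 (-0.32 to 0.17) and 0.26 (-0.77 to 1.30), and Scd was above background on 3 of 5 chow and 5 of 5 sucrose arrays. Fgf21 was not above background often enough to be tested, and Srebf1 had no matched probe. Among fructose genes, Tkfc, the triokinase that phosphorylates glyceraldehyde from fructose, measured 5.73 ± 0.16 in chow and 5.26 ± 0.43 in sucrose hearts (SD, n = 5), with 4 and 3 arrays above background. Its difference was -0.47 (-0.80 to -0.14), and -0.30 without sucrose replicate 5. The lowest values, 4.58 and 5.11, were those of sucrose replicates 5 and 1, arrays with noisy controls. Over 28 alternative ways of processing the difference ran from -0.74 to -0.16. Of the 6 genes of the list 0 passed the test.

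The insulin receptor substrates showed no difference past the test. Irs1 differed by -0.12 (-0.47 to 0.23), with another probe of the gene of opposite sign, and Irs2 by 0.16 (-0.35 to 0.67). Of 28 genes of insulin signalling and FOXO targets, 21 had an interval inside 1.5-fold, and 1 reached an unadjusted p under 0.05, Trib3, a pseudokinase that binds AKT, at -0.55 (-1.09 to -0.02). Its low values were those of sucrose replicates 1 and 5, and without the 3 arrays with noisy controls the difference was -0.17. Prkaa1, the alpha 1 catalytic subunit of the energy sensor AMPK, measured 5.91, 5.91, 5.70, 5.85 and 5.85 on the chow arrays and 6.25, 6.37, 6.57, 5.92 and 6.66 on the sucrose arrays. The lowest sucrose array lay just above the highest chow arrays, so the groups did not overlap, and the difference was 0.51 (0.15 to 0.87), beside 0.29 (0.03 to 0.54) in perfused hearts. In the hexosamine pathway, which makes the sugar donor for O-GlcNAc, 2 of 10 genes were lower at an unadjusted p under 0.05 (1.9% of all genes were). These were Gfpt2, a rate-limiting enzyme of the pathway, at -0.62 (-1.07 to -0.17), and Uap1, which makes the donor itself, at -0.49 (-0.85 to -0.13). Neither passed the adjustment, and the low Gfpt2 values were those of sucrose replicates 1 and 5, the arrays with noisy controls, at 4.78 and 4.90 against 5.57 to 6.12 on the other 3, and without the 3 noisy arrays the difference was -0.18.

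Genes of fatty acid use lay mostly below 0. Of 45 tested genes of uptake, oxidation and PPAR alpha targets, 32 were lower in sucrose hearts. The other 13 (28.9%) were above 0, against 47.3% of all tested genes. The list's median difference was -0.07, beside -0.01 over all tested genes. None of the 45 passed the test, 3 were lower at an unadjusted p under 0.05 (1.9% of all genes were), and 40 had an interval inside 1.5-fold. In the authors' deposited table, where all genes shifted to a median of -0.12, the list's median was -0.15, so most of its distance from 0 was shared with all genes there. Cd36, the fatty acid transporter, measured 16.26, 16.50, 16.34, 16.41 and 16.34 on the chow arrays and 16.14, 16.24, 15.84, 16.24 and 16.12 on the sucrose arrays. Every sucrose array lay below every chow array, at a difference of -0.25 (-0.51 to 0.01). Within the 4 slides the differences were -0.06, -0.37, -0.10 and -0.57.

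Mlycd, the malonyl-CoA decarboxylase that relieves the block on fatty acid entry into mitochondria, also had groups that did not overlap, at 14.24 ± 0.07 in chow and 13.92 ± 0.26 in sucrose hearts (SD, n = 5). Its difference was -0.32 (-0.54 to -0.09), and sucrose replicate 3 was the lowest array, at 13.49, without which it was -0.21. The other genes at an unadjusted p under 0.05 were Ehhadh, a peroxisomal oxidation enzyme, at -0.30 (-0.57 to -0.03) and Etfdh, which hands electrons from fatty acid oxidation to the respiratory chain, at -0.18 (-0.32 to -0.04). Aqp7, a glycerol channel of adipocytes and heart, measured 12.66, 12.86, 12.80, 13.05 and 12.84 on the chow arrays and 12.29, 12.64, 12.72, 12.25 and 12.52 on the sucrose arrays. Only the lowest chow array fell within the sucrose range, and the difference was -0.36 (-0.63 to -0.08). Acot1, a thioesterase under PPAR alpha, differed by -0.23 (-0.47 to 0.00) and Cpt1b, the carnitine shuttle enzyme of muscle, by -0.12 (-0.29 to 0.05).

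Several fatty acid-induced genes that are often read as signs of PPAR alpha activity gave differences near 0. Pdk4, the kinase that shuts pyruvate dehydrogenase, measured 7.19, 7.54, 7.74, 7.93 and 7.93 on the chow arrays and 6.98, 7.97, 7.80, 7.65 and 7.44 on the sucrose arrays, a difference of -0.10 (-0.57 to 0.38). Ucp2 and Ucp3, mitochondrial carriers, differed by 0.05 (-0.44 to 0.54) and -0.15 (-1.02 to 0.73). Angptl4, an inhibitor of lipoprotein lipase, measured 8.42, 8.58, 10.48, 10.01 and 8.65 on the chow arrays and 7.84, 9.81, 10.39, 10.20 and 8.19 on the sucrose arrays. Both diets held arrays of about 8 and arrays of about 10, and the interval of its difference, -1.0 to 1.1, was too wide to bound a change under 2-fold.

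In the 20 perfused hearts the same list gave 39 of 45 genes below 0, with a median of -0.11, and 16 lower at an unadjusted p under 0.05, a rule met in that direction by 4.13% of all genes. None of the 45 passed the adjustment. There Cd36 differed by -0.24 (-0.43 to -0.06), Aqp7 by -0.25 (-0.45 to -0.06), Acot1 by -0.43 (-0.60 to -0.26) and Pdk4 by -0.52 (-0.85 to -0.18). Mlycd and Etfdh, at an unadjusted p under 0.05 in non-perfused hearts, differed by -0.05 (-0.21 to 0.10) and -0.05 (-0.15 to 0.05) in perfused hearts. Ucp2, which had the smallest p of the comparison in perfused hearts, differed there by 0.91 (0.57 to 1.26, limma adjusted p = 0.108) and Angptl4 by -1.18 (-1.92 to -0.44). The test of whether the diet difference itself differed between non-perfused and perfused hearts called none of these genes (Ucp2 limma adjusted p = 0.999).

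**Figure D2:**
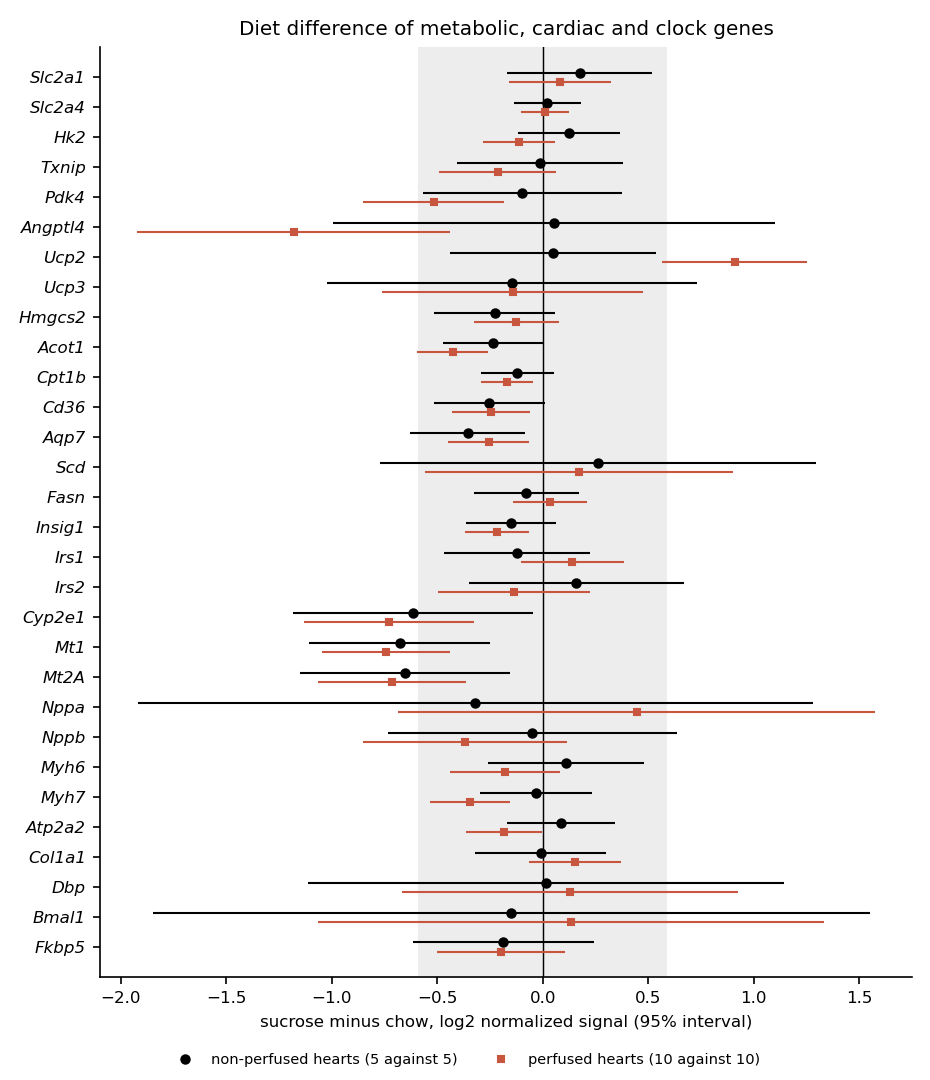
Diet difference (sucrose minus chow, log2, horizontal axis) with its 95% interval for 30 genes in non-perfused hearts (black circles, 5 against 5 arrays) and perfused hearts (red squares, 10 against 10), with a grey band at 1.5-fold in either direction. Slc2a4 has a narrow interval about 0, while Mt1, Mt2A, Cyp2e1 and Aqp7 have intervals below 0 in both sets of hearts.

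Metallothioneins are small proteins that bind zinc and are induced by metals, glucocorticoids and fasting, and Mt1 and Mt2A had lower means in sucrose hearts without passing the test. Mt1 measured 13.66, 12.95, 13.30, 13.49 and 13.76 on the chow arrays and 12.87, 12.76, 12.22, 13.18 and 12.73 on the sucrose arrays. Of the sucrose arrays, 4 lay below every chow array, and the difference was -0.68, a 1.6-fold lower level (-1.11 to -0.25 on the log2 scale, SE 0.21). Within the 4 slides it was -0.53, -0.15, -0.54 and -1.26. Mt2A measured 11.40, 11.21, 11.28, 11.43 and 11.55 on the chow arrays and 10.81, 10.74, 10.41, 11.22 and 10.44 on the sucrose arrays. Only sucrose replicate 4 reached the chow range, and the difference was -0.65 (-1.15 to -0.15), with -0.26, -0.59, -0.54 and -1.03 within slides. Mt3, the metallothionein of the brain, differed by 0.09 (-0.29 to 0.48). Of the 6 genes besides Mt1 and Mt2A in the list of metallothioneins and zinc transport, whose median was -0.04, none reached an unadjusted p under 0.05. In perfused hearts, which had higher metallothionein levels, the differences were -0.74 (-1.05 to -0.44) for Mt1 and -0.71 (-1.06 to -0.36) for Mt2A.

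Cyp2e1, a cytochrome P450 that oxidizes ethanol, ketones and fatty acids, measured 9.65, 9.40, 9.23, 8.76 and 9.29 on the chow arrays and 8.47, 8.25, 9.02, 9.02 and 8.49 on the sucrose arrays. The lowest chow array, replicate 4, fell inside the sucrose range, and the difference was -0.62 (-1.19 to -0.05), beside -0.73 (-1.13 to -0.33) in perfused hearts. Within slides it was -0.44, -0.92, -0.99 and 0.26, so the slide holding that chow array went the other way. Mt1, Mt2A, Cyp2e1, Cd36 and Aqp7 were put on the lists with earlier results of these arrays known, so their likeness in both sets of hearts is a description.

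The machinery of respiration and contraction differed little. Of 59 oxidative phosphorylation subunits, 59 had an interval inside 1.5-fold, and none reached an unadjusted p under 0.05. Their median difference was 0.04, but it was -0.02 after quantile normalization, and no direction is read from it. Proteasome subunits (30 of 30), ketone body genes (11 of 11) and branched-chain amino acid genes (14 of 14) were bounded in the same way. Of 28 genes of calcium cycling and contraction 26 were, and Atp2a2, the calcium pump SERCA2, differed by 0.09 (-0.17 to 0.34). The myosin heavy chains Myh6 and Myh7, whose balance shifts toward Myh7 in stressed rat hearts, differed by 0.11 (-0.26 to 0.48) and -0.03 (-0.30 to 0.24). Col1a1, a fibrillar collagen, differed by -0.01 (-0.32 to 0.30).

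Of the natriuretic peptide genes, Nppa was too variable between rats to bound. Nppa, which encodes ANP, measured 9.77, 12.88, 13.25, 13.89 and 9.30 on the chow arrays and 12.49, 12.69, 9.24, 11.55 and 11.53 on the sucrose arrays. Both diets held arrays below 10 and arrays above 12, and the interval of the difference, -1.92 to 1.28, allowed a change of over 2-fold either way. Nppb, which encodes BNP, differed by -0.05 (-0.73 to 0.64), with chow replicate 1 at 13.87 and sucrose replicate 3 at 13.78 as the lowest arrays. Its difference was -0.40 without that chow array and 0.31 without that sucrose array. Of 32 matrix genes 1 was higher and 1 lower at an unadjusted p under 0.05. Spp1, the secreted osteopontin, stood higher at 0.59 (0.07 to 1.11), but its sucrose arrays measured 7.40, 7.52, 9.29, 7.58 and 7.41, and without replicate 3 the difference was 0.23. Dcn, the proteoglycan decorin, was the other matrix gene at an unadjusted p under 0.05, at -0.20 (-0.39 to -0.02), lower on all 4 slides and at 0.01 in perfused hearts.

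Stress and inflammatory genes gave a few values away from 0 and none past the test. Of 36 immediate-early genes 10 were above 0 (47.3% of all tested genes were). Maff, a small transcription factor of the MAF family, stood at -0.38 (-0.71 to -0.06). It was above background on 4 chow and 3 sucrose arrays and lowest on sucrose replicates 1 and 5, arrays with noisy controls. Over 28 alternative ways of processing its difference ran from -0.52 to -0.10. Of 29 interferon-response and antigen presentation genes 22 were above 0, with a median of 0.05, beside -0.01 over all tested genes. In the deposited table, where all genes shifted to a median of -0.12, the list's median was -0.04, with 13 genes above 0. The list's median was 0.03 after quantile normalization and 0.08 with the slide as a fixed block. Within the list B2m, the light chain of class I molecules, stood at -0.33 (-0.64 to -0.03). Cxcl12, a chemokine of stromal cells, measured 12.72, 12.75, 12.70, 12.37 and 12.73 on the chow arrays and 12.87, 12.95, 13.07, 13.08 and 13.13 on the sucrose arrays. Its groups did not overlap, at 0.36 (0.07 to 0.66), although another probe of the gene had the opposite sign. Fkbp5, a glucocorticoid target, differed by -0.19 (-0.61 to 0.24). Npy, a peptide of sympathetic nerves, differed by 0.01 (-0.83 to 0.84), with another probe of opposite sign, and Hbb, a globin of red blood cells, by 0.13. Hbb ran from 16.81 to 17.64 over the 10 arrays. Its interval of -1.83 to 2.08, like every interval here, carries the spread of all 30 arrays, perfused hearts included. Such an interval can be wider or narrower than the 10 arrays alone would give.

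The genes with the smallest p-values are given as values, since none passed the test. Dock11, an activator of the small GTPase CDC42, measured 7.36, 7.27, 7.18, 7.14 and 6.96 on the chow arrays and 6.52, 6.71, 6.92, 6.87 and 6.62 on the sucrose arrays. All sucrose arrays lay below all chow arrays, at -0.45 (-0.69 to -0.22). The lowest were sucrose replicates 1 and 5, arrays with noisy controls, and the difference ran from -0.59 to -0.27 over 29 alternative ways of processing. Twnk, the helicase of mitochondrial DNA, measured 16.46, 16.54, 16.40, 16.32 and 16.65 on the chow arrays and 16.78, 16.81, 16.84, 16.75 and 16.83 on the sucrose arrays. Its groups did not overlap either, and the sucrose arrays were the tighter group, with a difference of 0.32 (0.14 to 0.50). Another probe of Twnk, above background on all 10 arrays, differed by 0.06. RT1-CE3, a class I histocompatibility gene whose family shares sequence and varies between rats, measured 8.84, 8.35, 8.48, 8.23 and 7.92 on the chow arrays and 9.17, 8.96, 9.23, 8.99 and 9.09 on the sucrose arrays, a difference of 0.73 (0.33 to 1.12) without overlap.

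Ednrb, the endothelin receptor type B, measured 8.34, 8.45, 8.63, 8.53 and 8.21 on the chow arrays and 8.18, 7.84, 8.07, 7.63 and 7.62 on the sucrose arrays, and Bok, a BCL2 family member, 10.52, 10.58, 10.31, 10.29 and 10.16 on the chow arrays and 10.75, 10.83, 10.66, 11.05 and 10.92 on the sucrose arrays. Neither overlapped between diets, at -0.57 (-0.93 to -0.21) and 0.47 (0.20 to 0.74). Psmd13 (a proteasome lid subunit), Whrn (a scaffold protein), Cmc1 (a cytochrome oxidase assembly factor) and Cntrob (a centriole protein) were other genes of the 20 smallest p-values with no overlap, at 0.23, 0.35, 0.65 and -0.55. For Cntrob the value was -0.33 without chow replicate 2 and 0.27 in the authors' deposited table. Tubg1, gamma-tubulin, had the smallest p among genes with a symbol, at 0.28 (0.14 to 0.42) with overlap. In perfused hearts the differences were 0.07 for Dock11, 0.07 for RT1-CE3, -0.18 for Ednrb and -0.07 for Tubg1. Twnk stood at -0.21 with mannitol and 0.25 with glucose, and Bok at 0.33 (0.14 to 0.52) over both.

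Wider differences were found where levels were low or single rats stood apart. C6, a complement component, measured 7.33, 8.23, 7.05, 7.14 and 4.92 on the chow arrays and 6.81, 4.48, 4.51, 4.99 and 3.05 on the sucrose arrays, at -2.16 (-3.34 to -0.99), but 0.83 (-0.01 to 1.66) in perfused hearts. Defb1, an epithelial antimicrobial peptide, measured 6.30, 4.86, 5.47, 5.45 and 5.47 on the chow arrays and 3.87, 3.94, 5.21, 2.62 and 3.86 on the sucrose arrays, with 4 chow and 2 sucrose arrays above background, at -1.61 (-2.44 to -0.78). In perfused hearts it differed by -0.05 with mannitol and -1.58 with glucose. Over 28 alternative ways of processing the non-perfused difference ran from -2.67 to -0.98 for C6 and from -1.94 to -0.46 for Defb1. Ppef2, a phosphatase of sensory neurons, was above background on 4 of 5 chow arrays and 0 of 5 sucrose arrays. Sucrose replicates 1 and 5 had noisy controls. In the main processing its level was at least 1.72-fold lower with sucrose. That bound sets the chow mean against the dimmest level that the sucrose arrays could measure. The log2 difference of -1.71 ran from -2.20 to -0.34 over 28 alternative ways of processing, so the bound holds for the main one only.

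Map3k12, a kinase of axon injury signalling, had the largest difference in the positive direction without overlap, 2.18 (0.61 to 3.75). It measured 7.35, 10.36, 8.03, 8.28 and 10.20 on the chow arrays and 10.39, 11.57, 11.22, 11.25 and 10.71 on the sucrose arrays. Levels fell into a low set below 9 and a high set above 10, and the low set held 3 of 5 chow and 0 of 5 sucrose arrays. In perfused hearts it held 4 of 10 chow and 4 of 10 sucrose arrays. Slc7a5, an amino acid transporter, differed by 1.49 with sucrose replicate 5 at 8.84 against 4.41 to 5.15 on the other sucrose arrays, and the difference was 0.68 without it. Pvalb, the calcium buffer parvalbumin, read 10.25 on chow replicate 2 and at most 4.63 on all others, and its difference of -1.64 became -0.49 without that array.

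**Figure D3:**
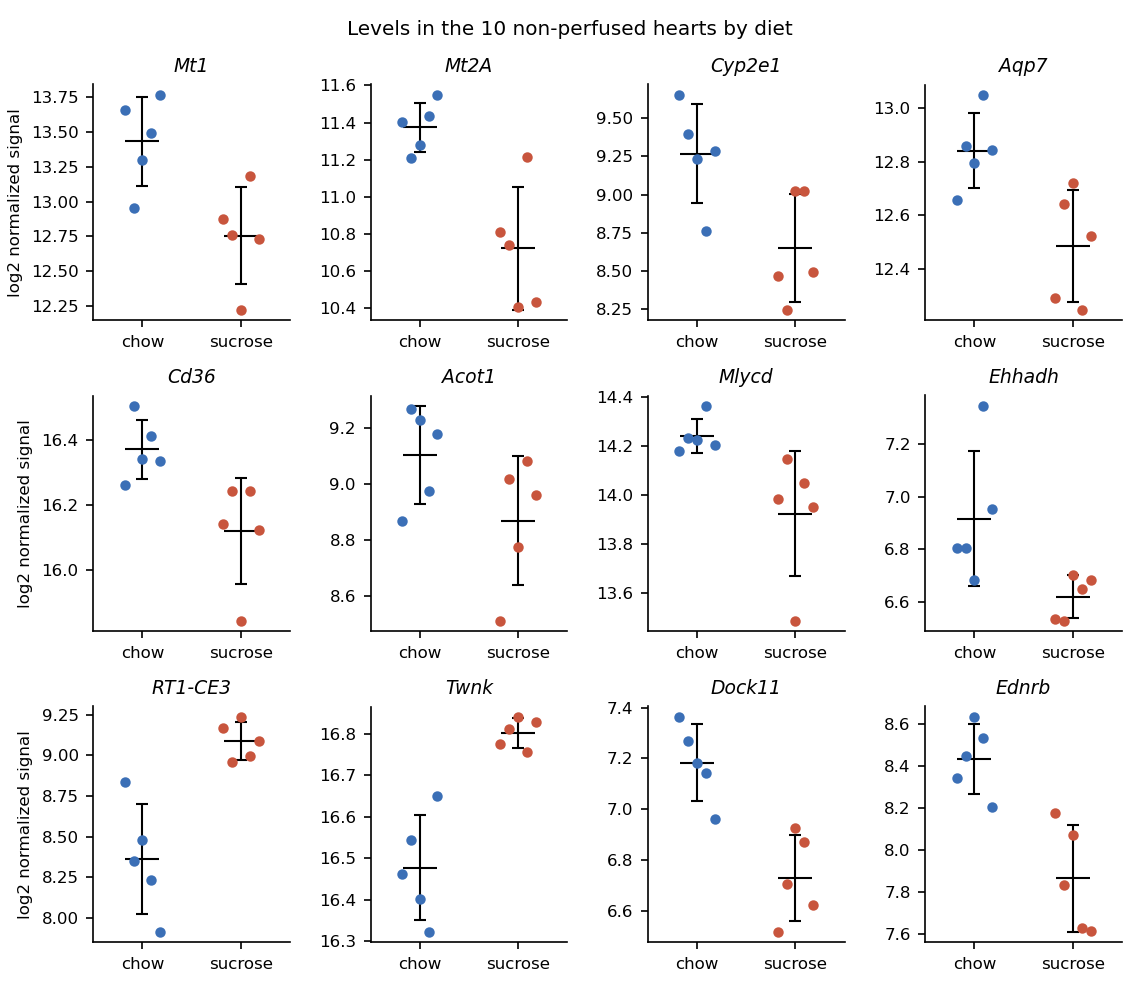
Log2 normalized signal (vertical axes, 1 scale per gene) of 12 genes in each of 5 chow (blue) and 5 sucrose (red) non-perfused hearts, in replicate order from left to right, with the mean (dash) and SD (bars). The groups do not overlap for Cd36, Mlycd, RT1-CE3, Twnk, Dock11 and Ednrb, and overlap for the other genes.

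No cell type marker list differed past the test between the diets. Each of 20 marker lists was summed on each array, the groups overlapped for all 20 sums, and the smallest exact two-sided permutation p was 0.103 (white adipocyte, -0.12; adjusted p = 0.776 over the 20 lists, smallest possible unadjusted p 0.00794). In whole ventricle, fewer cells of a type and less RNA per cell cannot be told apart. Adipoq and Cidec, defining genes of white adipocytes, and Ucp1 and Elovl3, of brown adipocytes, were above background on none of the 10 arrays. The macrophage sum ran from 13.83 to 14.72 in chow and from 13.86 to 14.46 in sucrose hearts (exact permutation p = 0.302).

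Single macrophage genes lay below 0 throughout. All 13 tested markers were below 0, with a median of -0.22, while 47.3% of all tested genes were above 0. At an unadjusted p under 0.05, 3 were lower, a rule met in that direction by 1.9% of all genes, and none passed the adjustment. Lyve1, a hyaluronan receptor of resident macrophages and lymphatic vessels, measured 8.91, 8.23, 8.82, 9.09 and 8.34 on the chow arrays and 8.53, 8.11, 8.17, 8.00 and 7.79 on the sucrose arrays, a difference of -0.56 (-0.92 to -0.20). Mrc1, the mannose receptor, measured 5.33, 6.77, 4.70, 5.12 and 4.12 on the chow arrays and 4.27, 4.75, 4.81, 4.79 and 4.10 on the sucrose arrays, at -0.66 (-1.29 to -0.04), with chow replicate 2 the highest array. Without that array the difference was -0.27, and without the 3 arrays with noisy controls it was -0.03. The summed level was highest on chow replicate 1 and lowest on chow replicate 2. Within slides, 1 of 13 markers was lower on all 4 (6.19% of all tested genes were), and in perfused hearts 1 of 13 was below 0, with a median of 0.11. Spi1, which encodes the myeloid factor PU.1, was at -0.71 (-1.11 to -0.31), at -0.38 without the 3 arrays with noisy controls, and at 0.09 in perfused hearts.

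**Figure D4:**
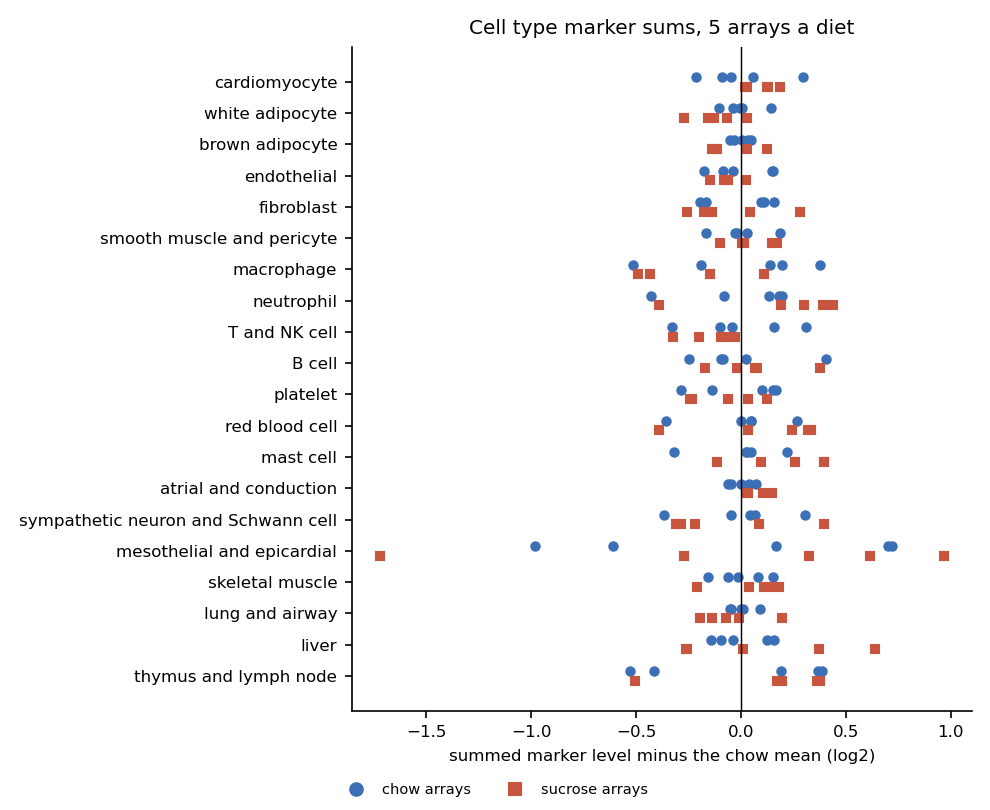
Summed level of each cell type marker list on each array, as the log2 difference from the chow mean (horizontal axis), for 5 chow arrays (blue circles) and 5 sucrose arrays (red squares) of non-perfused hearts. The arrays of the diets overlap in all 20 lists, and the mesothelial and epicardial list has the widest spread.

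A coordinated difference among the 10 hearts lay between rats of the same diet, in the circadian clock. The clock's activator gene Bmal1 and several, but not all, of its repressors and outputs peak at roughly opposite times of day. Bmal1 measured 8.18, 9.89, 10.22, 9.85 and 9.86 on the chow arrays and 7.27, 9.94, 10.01, 10.01 and 10.02 on the sucrose arrays. Replicate 1 was the lowest array of both diets, and the other 8 arrays lay between 9.85 and 10.22. Dbp, a clock output, measured 14.75, 12.26, 11.91, 12.43 and 12.35 on the chow arrays and 14.72, 11.84, 13.16, 12.12 and 11.95 on the sucrose arrays, with replicate 1 the highest in both. Ciart, a repressor of the clock, read 7.78 and 8.15 on the replicate 1 arrays and from 2.89 to 4.64 on the others, and Per2, another repressor, 8.05 and 8.39 against 5.74 to 6.95.

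Of 16 tested clock genes, 11 had replicate 1 as the highest of its group in both diets (6 genes) or as the lowest in both (5), a pattern held by 10.4% of all tested genes. Besides those above, Nr1d2, Tef and Bhlhe40 were highest and Npas2, Cry1, Nfil3 and Per1 lowest there. This pattern was noticed after the values were seen. Between the diets no clock gene differed at an unadjusted p under 0.05, with -0.15 (-1.85 to 1.55) for Bmal1 and 0.02 (-1.11 to 1.14) for Dbp. The pair shares neither slide nor control noise, as sucrose replicate 1 lay on the noisy slide and chow replicate 1 did not, and the labels give no time of day. Without both arrays 0 genes were called, and 658 reached an unadjusted p under 0.05.

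**Figure D5:**
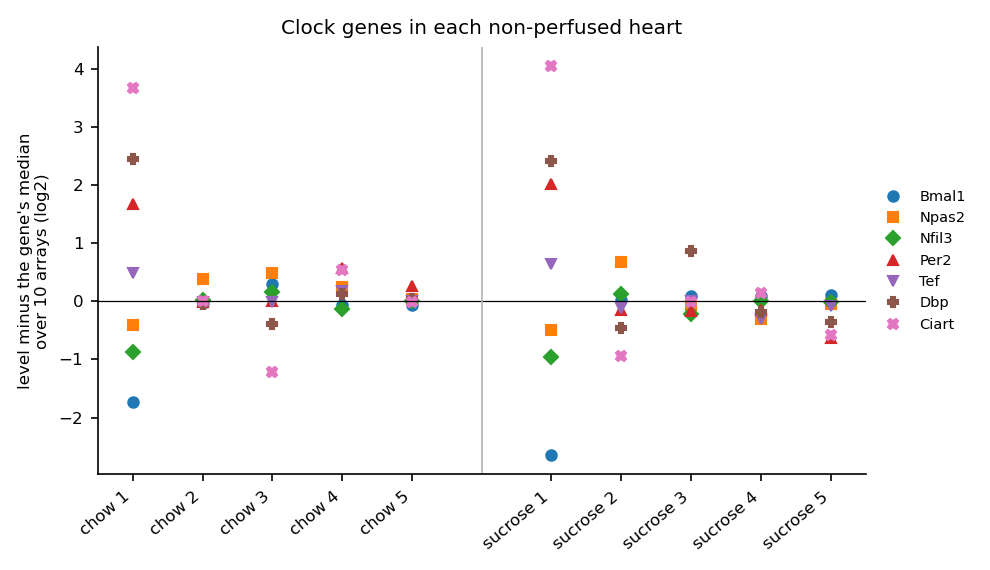
Level of 7 clock genes on each non-perfused array (horizontal axis), as the log2 difference from that gene's median over the 10 arrays (vertical axis). On chow replicate 1 and sucrose replicate 1, Ciart, Dbp, Per2 and Tef lie above and Bmal1, Npas2 and Nfil3 below the other arrays' median.

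Over all genes, the diet differences of non-perfused hearts were set beside those of perfused hearts, which are other rats. Of 18333 genes, 9629 (52.5%) had the same sign in both, and the correlation across genes, which are not independent replicates, was 0.08. Among the 92 genes whose groups did not overlap in non-perfused hearts, 58 kept their sign (63.0%), and among the 20 named genes with the smallest p-values 11 did. The test of the difference between the 2 states called 0 genes, with 697 at an unadjusted p under 0.05 (3.8%). In mannitol-perfused hearts alone, 1 of 18333 genes passed (0.00545%), a probe without a gene symbol that was lower with sucrose there (limma adjusted p = 0.016) and differed by 0.09 in non-perfused hearts. At an unadjusted limma p under 0.05 there were 1455 genes (7.94%) in mannitol-perfused hearts, where slide row and diet cannot be told apart. In glucose-perfused hearts 0 passed, with 804 at an unadjusted p under 0.05 (4.39%).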

How the data were processed

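Per the labels, total RNA of each left ventricle was labelled with Cy3 and hybridized to 1-colour Agilent arrays, read with Agilent Feature Extraction (11.0.1.1 per the file headers, 10.3 per the submitters' processing notes). The deposited scanner files hold background-subtracted intensity per spot. The deposited value table holds log2 values, and its column quantiles were equal; it was used as an alternative, and how the authors normalized it is not given in the sources used here. From the intensity, log2 signal minus each array's 75th percentile was computed, the mean percentile (9.58) added back, outlier spots left out, spots of a probe averaged, and the brightest probe kept for each gene. Genes well above background on 4 of 5 arrays in at least 1 of the 6 groups were tested with limma 3.58.1 (R 4.3.3) in 1 fit of all 30 arrays, with Benjamini-Hochberg adjustment. Probes were named through RefSeq tables, which gave a symbol to 60.4% of 30367 probes. Named genes were those with the 20 smallest p-values, the 6 widest differences without overlap in each direction, the 2 smallest p-values of each list and genes given in advance. Others (Ehhadh, Lyve1, Mrc1, most clock genes and the genes of the closing observations) were chosen after their values were seen. The members, lists and genes given in advance were chosen with earlier results of these data known. Where nothing ties samples to separate litters or cages, p-values measure the spread between these samples. The fit was tested on simulated data. Some measured genes are not reported here.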

Additional observations from a re-analysis of the deposited data

Results flagged for a closer look

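An array was picked out when its distance to the nearest other array of its diet, over the group's range, passed Dixon's 95% critical value of 0.71 for 5 arrays. Of 206 groups tested (83 named genes and 20 marker sums in both diets) 24 passed, where chance gives about 1 in 20. Of these, 14 were on the 3 arrays with noisy control spots, and many genes were named because of such arrays. Values below are distances to the nearest array of the group, on the log2 scale.

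The clock pair gave 7 of them. On chow replicate 1, Bmal1 stood apart by -1.66, Nfil3 by -0.737 and Dbp by 2.32. On sucrose replicate 1, Bmal1 stood apart by -2.67, Cry1 by -0.731, Ciart by 3.91 and Per2 by 2.17. Chow replicate 1 was also apart for Penk (-3.35), and sucrose replicate 1 for Ucp3 (-1.5) and the summed thymus and lymph node markers (-0.676).

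Chow replicate 2, one of the arrays with noisy controls, stood apart for Pvalb (5.62), Oas1i (4.59), Pced1b (-4.45), Rnf126 (-3.41), Cntrob (0.956) and Irs2 (-0.439). Sucrose replicate 5, another of them, stood apart for Slc7a5 (3.69) and Whrn (0.306). Sucrose replicate 3 was apart for H19 (3.86) and Spp1 (1.71). Chow replicate 4 was apart for Fkbp5 (0.781), Cxcl12 (-0.327) and Mlycd (0.131), and chow replicate 5 for Ucp2 (-1.06). No cause was tested.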

How the results depend on the processing

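Under 29 alternatives, 0 genes were called between the diets in non-perfused hearts, with 308 (the deposited table) to 1020 genes (the 10 arrays alone with slide as a block, an alternative chosen after seeing the data) at an unadjusted p under 0.05 and a smallest adjusted limma p of 0.158 to 1.00. Leaving out 1 array at a time gave 461 to 890 genes, the lowest without sucrose replicate 5 and the highest without sucrose replicate 2. Slide as a fixed block gave 991 and the 10 arrays alone 523. The replicate numbers did not pair the hearts (correlations of -0.31 to 0.10 between same-numbered arrays), and the replicate block gave 553 genes in the 10 arrays and 583 in all 30, with 0 called.

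Of 2384 values of the 83 named genes under these alternatives, 2303 moved by less than the standard error of the main diet difference. The other 81 moved by at least that much, and none passed the limma test (lowest adjusted p 0.276). The deposited table moved the median difference of all genes from -0.01 to -0.12. It called 0 genes lower in mannitol-perfused hearts (1 by the main method), and over all perfused hearts 1 higher, Ucp2 (0.95), and 1 lower, Esm1 (-0.80), both at an adjusted limma p of 0.046. Where the signal is low, intervals are wide: 11405 of the 12873 genes above background on all 10 arrays, but 12827 of all 18333, were bounded within 1.5-fold.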

Other observations

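Among the genes with the largest spread between non-perfused hearts, chosen after the values were seen, several moved together across rats of both diets. Msln, the mesothelial surface protein mesothelin, read 11.59, 9.59, 10.14, 7.11 and 11.32 on the chow arrays and 10.57, 10.67, 11.76, 8.51 and 11.19 on the sucrose arrays. Krt19, a keratin of the epicardial surface, read 8.14, 6.11, 5.98, 2.44 and 8.12 on the chow arrays and 7.26, 6.77, 8.03, 4.26 and 7.80 on the sucrose arrays. Chow replicate 4 and sucrose replicate 4 were the lowest of their groups for both genes, and the diets overlapped widely.

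Sln, the small calcium pump regulator sarcolipin that is abundant in atria, read 12.37 on chow replicate 1 and 12.40 on sucrose replicate 3, against 7.64 to 9.92 on the other 8 arrays. H19, an imprinted RNA, had the same pair as its highest arrays, at 12.33 and 12.01. Penk, the precursor of enkephalins, had that pair as its lowest, at 8.79 and 9.14.

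Pced1b and Rnf126, both on chromosome 7, and Upk1b, on chromosome 11, fell into a low and a high set. The 3 lowest arrays of each were chow replicate 2 and sucrose replicates 1 and 4. Rnf126, a ubiquitin ligase, read 11.27 on chow replicate 2 and 14.68 to 15.91 on the other chow arrays, and it read 11.25 and 11.69 on sucrose replicates 1 and 4 and 15.27 to 16.07 on the other sucrose arrays. In the 20 perfused hearts the 3 genes again shared their 3 lowest arrays, but their low sets differed in size. There Pced1b lay below 9 on 2 of 10 chow and 1 of 10 sucrose arrays, and Upk1b on 5 of 10 and 5 of 10. Another probe of Upk1b had a difference of opposite sign. Myo19, a mitochondrial myosin on chromosome 10, lay below 9 in 3 of 5 chow and 3 of 5 sucrose hearts, a different set of rats, and between 11.86 and 12.53 in the others. Oas1i, an antiviral synthetase, read 12.99 on chow replicate 2 and 7.18 to 9.02 on the other 9 arrays. No cause of these patterns was tested.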
